A study of Mus musculus with 18 samples.

Results

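The genes described here are 10 members of the Notch signalling pathway in sorted mouse bone marrow B cells. The mice were heterozygous or deleted for Smchd1, the gene of a chromatin silencing protein. The 10 members are the ligands Jag1, Jag2 and Dll1, the receptors Notch1, Notch2, Notch3 and Notch4, the nuclear factor Rbpj, and the target genes Hes1 and Dtx1. Each was taken as the single row with that gene symbol in the count tables, which gave 10 of 25965 rows. Jag1 was chosen from its genotype difference in these same libraries, so its genotype values are a description and carry no test. The other 9 genes were added for their place in the pathway.

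RNA was sequenced from CD45.2+ B220+ Mac1- cells of the marrow of C57BL/6 mice aged 12 to 16 months, in 18 libraries. The del/del mice had both Smchd1 alleles deleted, and the heterozygous mice (del/+) kept 1 intact allele. Mice of both genotypes carried Vav-Cre, which the Vav promoter drives in blood-forming cells, so the deletion was not limited to B cells. Heterozygotes served as the controls, and no sample analysed here had 2 intact alleles. Females numbered 5 per genotype and males 4 per genotype. Each library bore its own animal number, and p-values measure the spread between these libraries.

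Notch receptors are cut after they bind a ligand of the Jagged or Delta family on a neighbouring cell. The freed inner part enters the nucleus, joins RBPJ and switches on genes such as Hes1 and Dtx1. In B cells, NOTCH2 with ligand DLL1 is known for the formation of marginal zone B cells in the spleen, and NOTCH1 for steering lymphoid progenitors to the T cell lineage.

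The start site regions of 4 genes are shown because Jag1 is the ligand that differed, Jag2 is its close relative that did not pass the test, Dtx1 has the smallest p among the other members over both sexes, and Rbpj holds the core letters that RBPJ itself is known to bind. Each runs from 250 bases before to 50 bases after an annotated start, as 300 bases from RefSeq (GRCm38.p6), and 9 of the 10 members had an entry. Jag1 lies on chromosome 2, and its window is chr2:137116471-137116770 on the minus strand. The Jag2 window is chr12:112929446-112929745 (minus), the Dtx1 window chr5:120711620-120711919 (minus), and the first of 2 Rbpj windows chr5:53590096-53590395 (plus). Capitals mark TGGGAA or its reverse complement TTCCCA.
Jag1: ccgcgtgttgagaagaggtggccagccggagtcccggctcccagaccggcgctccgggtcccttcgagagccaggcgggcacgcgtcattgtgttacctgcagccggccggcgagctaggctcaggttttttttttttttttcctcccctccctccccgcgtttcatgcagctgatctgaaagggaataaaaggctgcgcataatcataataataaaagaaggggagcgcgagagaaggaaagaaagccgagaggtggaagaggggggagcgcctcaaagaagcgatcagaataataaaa
Jag2: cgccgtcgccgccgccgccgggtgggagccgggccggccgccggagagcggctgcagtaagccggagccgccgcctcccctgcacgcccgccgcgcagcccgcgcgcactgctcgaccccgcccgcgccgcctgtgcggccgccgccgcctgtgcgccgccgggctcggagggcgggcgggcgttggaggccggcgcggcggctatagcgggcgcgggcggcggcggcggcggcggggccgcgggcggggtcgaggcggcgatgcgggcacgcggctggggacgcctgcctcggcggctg
Dtx1: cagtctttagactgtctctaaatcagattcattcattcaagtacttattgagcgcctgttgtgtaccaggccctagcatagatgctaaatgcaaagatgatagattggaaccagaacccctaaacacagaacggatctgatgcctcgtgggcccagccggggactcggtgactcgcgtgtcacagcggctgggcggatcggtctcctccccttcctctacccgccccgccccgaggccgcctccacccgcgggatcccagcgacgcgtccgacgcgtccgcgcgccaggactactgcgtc
Rbpj: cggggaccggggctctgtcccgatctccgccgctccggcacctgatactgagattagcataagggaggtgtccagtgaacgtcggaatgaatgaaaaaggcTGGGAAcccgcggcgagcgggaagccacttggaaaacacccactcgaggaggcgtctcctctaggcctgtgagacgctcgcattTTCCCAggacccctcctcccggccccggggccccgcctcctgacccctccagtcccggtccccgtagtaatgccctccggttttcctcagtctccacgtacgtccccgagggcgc
The Jag1 window held 22 CpG sites at 55.7% GC and the Jag2 window 63 at 86.0% GC, against medians of 7 sites and 52.7% GC over 32851 promoters. The Dtx1 window held 26 CpG sites. The letters TGGGAA or TTCCCA were found in 25.6% of all promoters, at 2 places in the Rbpj window and at none in the Jag1, Jag2 and Dtx1 windows. The longer form GTGGGAA or TTCCCAC was in 6.38% of all promoters and in none of the windows shown. A match is a description of letters only.

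Library totals ranged from 9788112 to 29405395 counts. Smchd1 checks the labels: it was at 248 ± 17.4 CPM (SD, n = 5) in female heterozygotes, 141 ± 17.6 (n = 5) in female del/del, 298 ± 21.7 (n = 4) in male heterozygotes and 177 ± 15.7 (n = 4) in male del/del libraries. CPM are depth-scaled counts, here with TMM factors applied. It fell in both sexes (log2 fold change -0.82 ± 0.09 SE in females and -0.74 ± 0.08 in males, adjusted p = 0.00119 and 0.00888, edgeR quasi-likelihood test), with no overlap between genotypes. The del/del mean of Smchd1 was 0.569 of the heterozygous mean in females and 0.594 in males, and the protein was not measured. The male call was lost without male del/del replicate 1 or 3 or male heterozygous replicate 1 (adjusted p = 0.054, 0.0538 and 0.0525). Cd79a, a B cell receptor subunit that defines B cells, was at 1030 to 1600 CPM over all libraries, and summed markers of T and NK cells were at 94.1 to 192 CPM. The 8 myeloid markers summed to 1220-2820 CPM in female heterozygotes, 803-4060 in female del/del, 1480-2810 in male heterozygotes and 1540-4800 in male del/del libraries, overlapping in each sex. Their highest sums were 4060 and 3990 in female del/del replicates 3 and 5 and 4800 in male del/del replicate 3, and their part in the results was not tested. No marker of the lists used here was at 0 in all libraries of a group.

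Male heterozygous replicate 2 stood apart in some markers and not in others. Its Col3a1, a fibroblast collagen, was at 5.2 CPM against at most 0.18 in the other male and 0.695 in the female libraries. Its Col1a1, another collagen, was at 2.0 CPM, above the other males (at most 0.71) but below 2 female heterozygotes (3.27 and 2.97). Its summed erythroid markers (7 of 8 with rows) were at 750 CPM, against 107, 154 and 405 in the other male heterozygotes. Its 10 stromal and endothelial markers summed to 307 CPM, the lowest of the male heterozygotes (319, 331 and 332 in the others). Of that list, Cxcl12 was at 5.7 CPM, above the other males (at most 4.48). Cdh5 was at 8.8 CPM, within the other male heterozygotes (6.59 to 11.2), and Pdgfrb at 1.1 beside 1.11 in replicate 4. Among male heterozygotes this library also had the highest Jag1 and Notch3. The male differences of Jag1, Notch3 and Hey1 and the sex difference of Jag1 are given with and without it.

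Of the 3 ligands, Jag1 was nearly silent in heterozygotes and present at a low level in every del/del library. In female heterozygotes its level was 0.278, 0.34, 0.336, 0.11 and 0.21 CPM, from 8, 4, 10, 2 and 5 reads. In female del/del libraries it was 1.39, 2.17, 2.73, 1.96 and 2.53 CPM, from 27, 52, 71, 43 and 53 reads. Every female del/del library was above every female heterozygote.

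Jag1 in male heterozygotes was at 0.52, 1.15, 0.235 and 0.554 CPM, from 5, 23, 4 and 7 reads. Male del/del libraries had 2.15, 4.4, 4.04 and 3.82 CPM, from 46, 98, 91 and 74 reads. The male genotypes did not overlap either, and the highest heterozygote was replicate 2. Of 13531 genes with a mean of at least 10 reads, 1.07% had no overlap between genotypes in females and 1.97% in males. The ratio of Jag1 group means was 8.47 in females and 5.85 in males. Those means were 0.255 ± 0.0965 CPM (SD, n = 5) and 2.16 ± 0.522 (n = 5) in heterozygous and del/del females, and 0.615 ± 0.384 (n = 4) and 3.60 ± 0.998 (n = 4) in males.

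On the fitted scale the Jag1 difference was a log2 fold change of 3.05 ± 0.34 (SE) in females, 2.50 ± 0.42 in males and 2.78 ± 0.27 over both sexes with sex as a covariate. In the authors' deposited table the log2 fold changes were 3.07 and 2.5. Ordered by p, Jag1 was gene 9 of 13501 tested in females, 19 of 13413 in males and 8 of 13733 over both sexes. These ranks rest on the difference that chose Jag1, so they are a description and lend it no weight. The female value exceeded the male one by 0.55 ± 0.53. Without male heterozygous replicate 2 the male value was 3.10 and that excess was -0.05, so the size of the sex gap rested on that library.

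Cells other than B cells that carry Jag1, such as endothelium, stroma and megakaryocytes, were followed by 16 markers. The 10 stromal and endothelial markers (10 of 10 with rows) summed to 275-320 CPM in female heterozygotes, 279-321 in female del/del, 307-332 in male heterozygotes and 289-330 in male del/del libraries. Pecam1, which B cells can also carry, gave 251 to 321 CPM of this. Of the more specific markers, Cdh5 of endothelium was at 10.9-20.6, 12.9-35.3, 6.59-11.2 and 8.44-11.2 CPM in the same order. Kdr of the same list was at 0.882-2.19, 0.709-5.73, 0.237-1.25 and 0.514-1.12 CPM. For both genes, female del/del replicates 1, 3 and 5 were above every female heterozygote, and replicates 2 and 4 were not. The 6 megakaryocyte markers (6 of 6) summed to 4.1-5.85, 3.15-6.35, 5.62-8.47 and 5.58-10.9 CPM. All these ranges overlapped between genotypes, and the part of such cells in the Jag1 difference was not tested. In bulk samples, more cells carrying a transcript and more transcript per cell cannot be told apart.

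**Figure D1:**
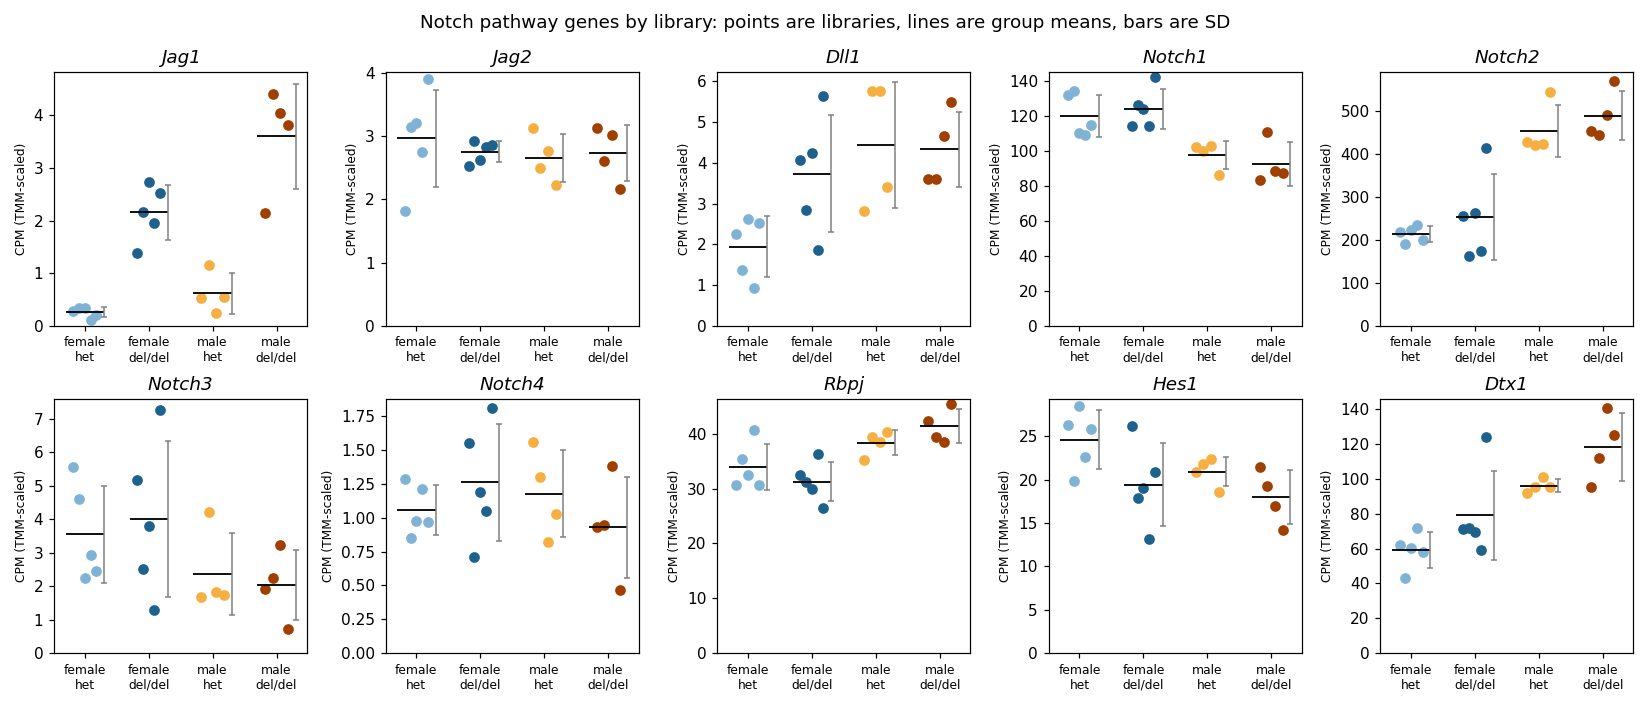
Each panel plots the level of 1 gene in CPM against genotype and sex, with a point per library, a line at the group mean and a bar of 1 SD (n = 5 per female group, n = 4 per male group). Jag1 is the only panel in which both sexes show a gap between genotypes, from 0.34 to 1.39 CPM in females and from 1.15 to 2.15 CPM in males. Jag1 was chosen for this difference. Genotypes had no overlap for 1.07% of 13531 genes in females and 1.97% in males.

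Jag2, the other Jagged ligand, did not pass the test between genotypes. Its level was 1.81, 3.14, 3.2, 2.75 and 3.91 CPM in female heterozygotes and 2.53, 2.92, 2.62, 2.83 and 2.86 in female del/del libraries. In males it was 3.12, 2.5, 2.76 and 2.22 CPM in heterozygotes and 3.13, 2.6, 3.02 and 2.17 in del/del libraries. The genotypes overlapped almost fully in each sex. The log2 fold change over both sexes was -0.04 ± 0.14 (adjusted p = 0.962, edgeR), and the value turned to 0.03 without female heterozygous replicate 5, 1 of 18 libraries left out in turn.

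Dll1, a Delta ligand, was at 2.26, 1.36, 2.62, 0.937 and 2.53 CPM in female heterozygotes and at 4.08, 2.84, 4.23, 1.87 and 5.63 in female del/del libraries. Of the latter, 4 were above every heterozygote and replicate 4 was within their range. In males it was 2.81, 5.75, 5.76 and 3.4 CPM in heterozygotes and 3.6, 3.59, 4.66 and 5.48 in del/del libraries, with full overlap. The female log2 fold change was 0.91 ± 0.34, which did not pass the test (unadjusted p = 0.019, adjusted p = 0.950, edgeR), and the adjusted p ranged from 0.238 to 1.0 over the alternatives. The male value was -0.05 ± 0.26 (adjusted p = 1.0). The difference between the sexes, 0.96 ± 0.46, did not pass either (unadjusted p = 0.0513, adjusted p = 1.0).

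Among the 3 ligands of the set, taken per kilobase of exon (RPKM), the make-up shifted with Jag1. Dll4, another Delta ligand, was at 0.416 to 4.58 CPM over all libraries and was not part of the sum. Jag1 was 2.97-7.01% of the summed RPKM of the 3 ligands in female heterozygotes and 15.2-28.4% in female del/del libraries. In males its share was 2.24-10.3% and 22.1-38.1%. Since Jag1 chose the set, these shares are a description.

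The receptors did not differ by genotype beyond the spread between libraries. Notch2, the receptor of marginal zone B cells, was at 218, 190, 223, 235 and 199 CPM in female heterozygotes and 255, 163, 263, 174 and 412 in female del/del libraries. The del/del libraries spread to both sides of the heterozygotes, with replicate 5 the highest. In males Notch2 was at 428, 420, 422 and 544 CPM in heterozygotes and 452, 442, 490 and 569 in del/del libraries, which overlapped. The log2 fold change over both sexes was 0.19 ± 0.13 (adjusted p = 0.816, edgeR). The female value of 0.24 ± 0.20 went to -0.00 without female del/del replicate 5.

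Notch1, the receptor of early T cell fate, was at 132, 134, 110, 109 and 115 CPM in female heterozygotes and 114, 126, 124, 114 and 142 in female del/del libraries. In males it was at 102, 100, 103 and 85.9 against 83.4, 111, 88.3 and 87.3 CPM. Genotypes overlapped in each sex, and the log2 fold change over both was -0.01 ± 0.07 (adjusted p = 0.977, edgeR). The Notch1 row overlaps 2 rows on the opposite strand that held up to 639 reads together, and the strand setting is not given in the sources used here.

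Notch3, a receptor known from vascular smooth muscle, was low, at 1.28 to 7.26 CPM in females and 0.723 to 4.2 in males. Male heterozygous replicate 2 had the highest male value, and the male log2 fold change of -0.23 ± 0.45 turned to 0.23 without it. Notch4, a receptor of endothelium, was at 0.465 to 1.81 CPM over all libraries. Over both sexes both log2 fold changes were 0.00, with SEs of 0.34 for Notch3 and 0.23 for Notch4 (adjusted p = 0.999 and 0.997, edgeR).

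Rbpj, the DNA-binding partner of the cut receptor, was at 30.7, 35.5, 32.5, 40.7 and 30.6 CPM in female heterozygotes and 32.5, 31.2, 29.9, 36.3 and 26.5 in female del/del libraries. In males it was at 35.2, 39.4, 38.5 and 40.4 against 42.4, 39.5, 38.6 and 45.4 CPM. Ranges overlapped in each sex, and the log2 fold change over both was -0.02 ± 0.07 (adjusted p = 0.965, edgeR).

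The 2 target genes had fold changes of opposite sign, and neither passed the test. Hes1, a repressor that is an early target of the pathway, was at 26.3, 19.8, 28.5, 22.6 and 25.8 CPM in female heterozygotes and 26.2, 17.9, 19.0, 13.1 and 20.9 in female del/del libraries. In males it was at 20.9, 21.8, 22.4 and 18.6 against 21.5, 19.3, 17.0 and 14.2 CPM. In each sex some del/del libraries were below all heterozygotes and others within their range. The log2 fold change was -0.35 ± 0.16 in females, -0.21 ± 0.13 in males and -0.29 ± 0.11 over both (unadjusted p = 0.0172, adjusted p = 0.559, edgeR; 0.296 to 0.847 over the alternatives).

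Dtx1 encodes a ubiquitin ligase of the Deltex family. It was at 61.9, 43.0, 60.2, 71.8 and 58.2 CPM in female heterozygotes and 71.2, 71.8, 69.4, 59.2 and 124 in female del/del libraries. In males it was at 91.9, 95.6, 101 and 95.6 against 95.4, 112, 141 and 125 CPM. In the male set 3 of 4 del/del libraries were above every heterozygote, and in the female set replicate 5 stood far above the rest.

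The Dtx1 log2 fold change was 0.41 ± 0.18 in females, 0.31 ± 0.11 in males and 0.37 ± 0.12 over both sexes (unadjusted p = 0.00643, adjusted p = 0.382, edgeR; 0.162 to 0.638 over the alternatives). Without female del/del replicate 5 the female value was 0.19. The ratio of Dtx1 to Hes1 RPKM had a range of 0.814-1.23 in female heterozygotes, 1.05-2.29 in female del/del, 1.69-1.98 in male heterozygotes and 1.71-3.42 in male del/del libraries. The genotypes overlapped in both sexes.

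**Figure D2:**
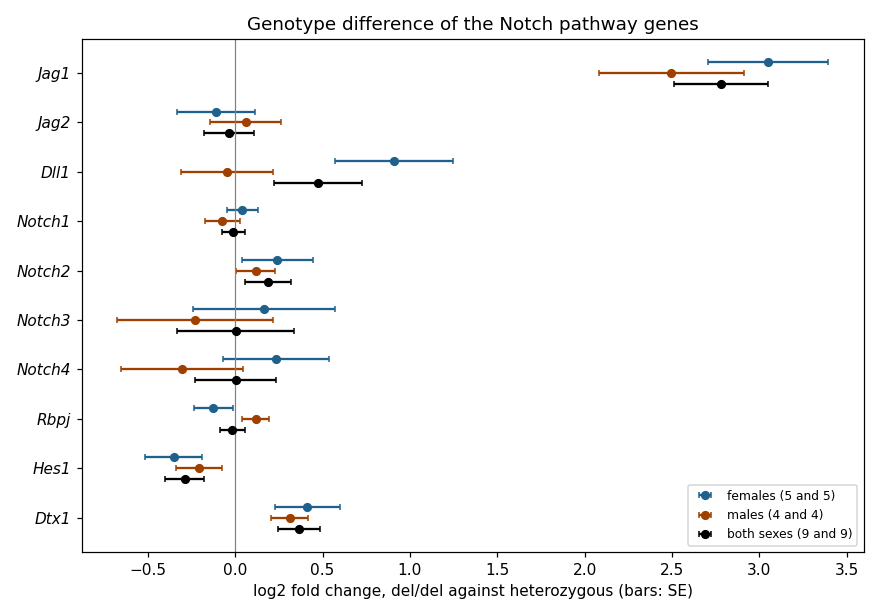
The horizontal axis is the log2 fold change of del/del against heterozygous libraries, with a point and an SE bar for females, males and both sexes, and a row per gene. Jag1 lies at 3.05, 2.50 and 2.78, and every other gene lies between -0.35 and 0.91.

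Counted over the pathway, 1 of the 10 genes passed an adjusted p under 0.05 in females, which was Jag1. Of all genes tested 0.252% passed there. In males 0 of 10 passed by edgeR against 0.119% of all genes. At an unadjusted p under 0.05 there were 2 in males (Jag1 and Dtx1), DESeq2 called 1 (Jag1) and voom 0. Over both sexes 1 of 10 passed, again Jag1, against 0.568% of all genes. Since Jag1 was chosen on this contrast, nothing is read from these counts beyond the other 9 genes, of which none passed by edgeR, DESeq2 or voom. Of those 9, Dll1, Hes1 and Dtx1 had an unadjusted p under 0.05 in females, Dtx1 in males, and Hes1 and Dtx1 over both sexes, beside 4.3%, 3.34% and 6.76% of all genes. The median log2 fold change of the 10 genes was 0.20 in females, 0.01 in males and 0.00 over both, beside 0.00 over all genes in each.

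For the difference of the genotype effect between sexes, 0 of the 10 genes passed by edgeR, DESeq2 or voom. At an unadjusted p under 0.05 there were 0 by edgeR and by voom, and DESeq2 gave Dll1 (unadjusted p = 0.0400). The share of all 14017 genes that passed was 0% by edgeR, with 1.45% at an unadjusted p under 0.05, and DESeq2 called 4 genes and voom 0.

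Levels can be set between genes only per length. In female heterozygotes the mean RPKM was 19.8 for Notch2, 12.1 for Hes1, 11.2 for Dtx1, 8.43 for Notch1 and 2.67 for Rbpj. The rest were under 1, with Dll1 at 0.46, Notch3 at 0.439, Jag2 at 0.425, Notch4 at 0.131 and Jag1 at 0.0437. The library ranges of Hes1 and Dtx1, of Dtx1 and Notch1, of Dll1 and Notch3, and of Notch3 and Jag2 overlapped, so those neighbours are not ordered beyond their spread.

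Jag1 was the lowest of the 10 in heterozygotes of both sexes, at 0.0437 RPKM in females and 0.106 in males, where its range overlapped that of Notch4 (0.146). In female del/del libraries it was at 0.37 RPKM, above Notch4 (0.157) and overlapping Jag2 (0.395). In male del/del libraries it was at 0.618 RPKM, with a range overlapping that of Jag2 (0.392). Notch2 had the highest mean in all 4 groups, at 23.5 RPKM in female del/del, 42.0 in male heterozygous and 45.3 in male del/del libraries. Its range overlapped that of Dtx1 in female del/del libraries.

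**Figure D3:**
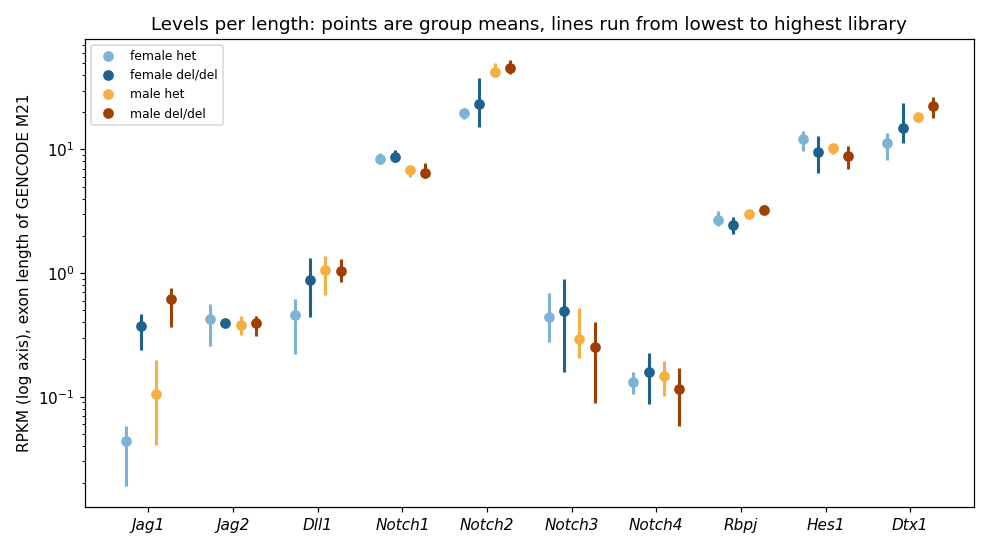
The vertical axis is the level in RPKM on a log axis and the horizontal axis the 10 genes, with a point at the mean of each of 4 groups and a line from the lowest to the highest library. Jag1 moves from 0.0437 to 0.37 RPKM in females and from 0.106 to 0.618 in males, while Notch2 stays highest, from 19.8 to 45.3.

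Sex was a second axis of variation in the pathway, tested between heterozygous females and heterozygous males. Since each sex had its own deposited table, sex and table cannot be told apart. Of the 10 genes 5 passed, 4 lower and 1 higher in females, where 22.7% of all genes passed. The median log2 fold change of the 10 genes was -0.155, beside -0.01 over all genes.

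Notch2 was lower in female heterozygotes, with a log2 fold change of -1.09 ± 0.19 (adjusted p = 0.000914, edgeR), as 190 to 235 CPM in females against 420 to 544 in males. Dtx1 was lower by the same comparison (-0.70 ± 0.17, adjusted p = 0.00873), at 43.0 to 71.8 against 91.9 to 101 CPM. Both were lower under every alternative and with each library left out.

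Dll1 was also lower in heterozygous females (-1.18 ± 0.33, adjusted p = 0.0165, edgeR), a call lost without male heterozygous replicate 2 or 3 (up to an adjusted p of 0.0616). Notch1 was higher (0.29 ± 0.10, adjusted p = 0.0355), and its adjusted p rose above the threshold in 5 of the fits with a library left out, to at most 0.121. Notch2, Dtx1, Dll1 and Notch1, 4 of the 10, had no overlap between the sexes in heterozygotes, as did 24.2% of 13531 genes with a mean of at least 10 reads.

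Jag1 was lower in heterozygous females than in heterozygous males by -1.29 ± 0.43 on the log2 scale (adjusted p = 0.0388, edgeR), with overlapping ranges and 2 to 23 reads per library. Without male heterozygous replicate 2 the value was -0.69 (adjusted p = 0.326). The call was lost as well without replicates 1, 4 or 5 of the female heterozygotes or replicates 1 or 4 of the male ones. With voom the adjusted p was 0.179.

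Jag2 (0.16 ± 0.21), Notch3 (0.55 ± 0.47), Notch4 (-0.13 ± 0.33), Rbpj (-0.18 ± 0.10) and Hes1 (0.24 ± 0.16) did not pass between the sexes (lowest adjusted p = 0.212, for Rbpj). In del/del libraries Notch1, Notch2 and Rbpj, 3 of the 10, had no overlap between the sexes, beside 16.4% of the same genes.

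**Figure D4:**
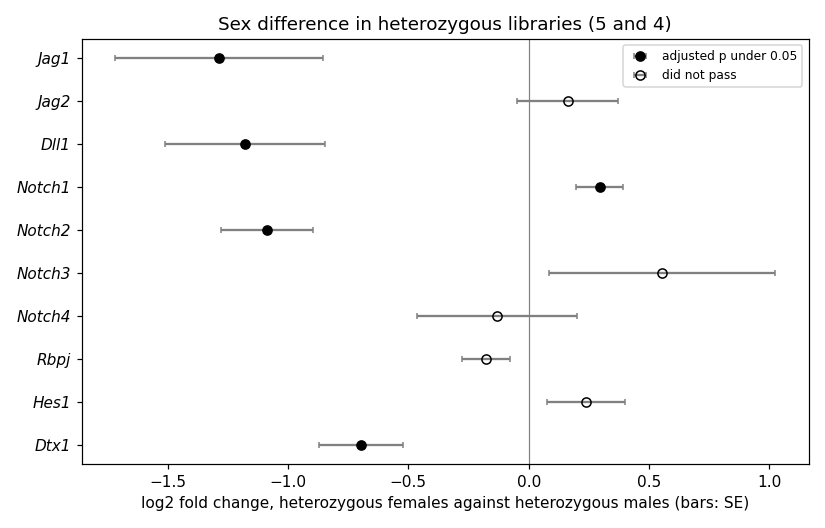
The horizontal axis is the log2 fold change of heterozygous females against heterozygous males with SE bars (5 and 4 libraries), and filled points passed an adjusted p under 0.05. Jag1, Dll1, Notch2 and Dtx1 lie between -1.29 and -0.70, and Notch1 lies at 0.29.

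The sexes also differed in markers of B cell stage. The 10 mature B cell markers (10 of 10 with rows) summed to 2280-3000 CPM in female heterozygotes and 3990-4910 in male heterozygotes, without overlap. In del/del libraries they were at 2050-3880 and 4000-4950 CPM. Cr2 and Fcer2a, receptors of mature B cells, were lower in heterozygous females (-1.77 ± 0.33 and -1.35 ± 0.33, adjusted p = 0.00140 and 0.00763, edgeR). The 10 pro-B and pre-B cell markers (10 of 10) summed to 4220-4550 CPM in female and 2740-3480 in male heterozygotes, and to 2940-4850 and 1890-2780 in del/del libraries. The part of B cell stage in the sex differences of Notch2, Dtx1, Dll1 and Notch1 was not tested.

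Notch2 varied with several marker lists within groups as well. Over the 18 libraries, taken as deviations from the 4 group means, Pearson r of Notch2 was 0.866 with the summed mature B cell markers, -0.779 with pro-B and pre-B cell markers and 0.753 with stem and progenitor markers. It was also 0.655 with plasmacytoid dendritic cell, 0.629 with T and NK cell and 0.539 with myeloid markers, so the likeness was not limited to markers of B cell stage. For Dtx1 r was 0.587 with mature and -0.73 with pro-B and pre-B cell markers. Female del/del replicate 5, the highest female library for both genes, also had the highest mature B cell sum of the females, 3880 CPM, and a myeloid sum of 3990 CPM. For Jag1, r lay between -0.417 and 0.294 with the 10 marker lists. Points share a library's depth and scaling, so these are descriptions.

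**Figure D5:**
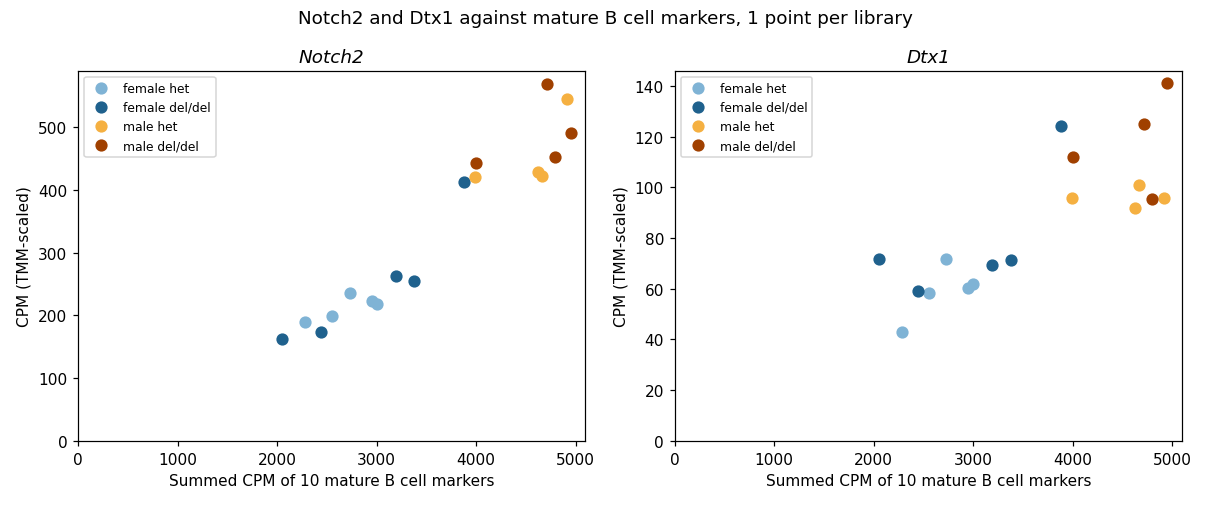
The horizontal axis is the summed CPM of 10 mature B cell markers and the vertical axis the CPM of Notch2 (left) or Dtx1 (right), with a point per library. Female libraries lie at 2050 to 3880 on the marker axis and male libraries at 3990 to 4950, and the female del/del library at 3880 is the one at 412 CPM Notch2 and 124 CPM Dtx1.

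The rest of the pathway was read from a list of 42 genes, of which 38 passed the filter on low counts (Dll3, Dlk1, Neurl1a and Hey2 did not). By genotype 0 of 38 passed in females, in males and over both sexes by edgeR, DESeq2 or voom, and 1 had an unadjusted p under 0.05 by edgeR in each. Beside this, 0.252%, 0.119% and 0.568% of all genes passed by edgeR, and 4.3%, 3.34% and 6.76% had an unadjusted p under 0.05. The median log2 fold change of the 38 was -0.01 in each, and 18 of 38 were above 0 in each.

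Among the other targets, Hey1, a repressor of the Hes family, was at 0.255 to 1.46 CPM in female heterozygotes and 1.0 to 2.53 in female del/del libraries (log2 fold change 1.13 ± 0.42, unadjusted p = 0.0192, adjusted p = 0.955, edgeR). Male heterozygous replicate 2 had the highest male Hey1, 1.85 CPM against 0.104 to 0.754 in the other males, and the male value was -0.14 ± 0.67 with this library and 1.22 ± 0.55 without it (unadjusted p = 0.0535, adjusted p = 1.0). With voom the male value was 0.61, so neither its sign nor its size was settled. Over both sexes Hey1 was at 0.62 ± 0.42 (adjusted p = 0.810), and at 1.14 without that library (adjusted p = 0.232). Dll4, a Delta ligand, had 0.75 ± 0.38 in females and 0.20 ± 0.32 in males, with overlap in both. Its highest female values, 2.43, 2.58 and 4.58 CPM, were in del/del replicates 1, 3 and 5. Those are the libraries with Cdh5 and Kdr above every female heterozygote, and the part of endothelium was not tested. Dtx4 was at -0.15 ± 0.21 and 0.21 ± 0.24.

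Among the processing genes, Aph1b, a subunit of the gamma-secretase that cuts the receptor, had the smallest male p (-0.46 ± 0.14, unadjusted p = 0.00895, adjusted p = 1.0, edgeR) and a female value of -0.24 ± 0.15. Its CPM was 8.35 to 9.5 in male heterozygotes and 5.66 to 7.94 in male del/del libraries, without overlap. Aph1b was picked for its small p, and 1.97% of 13531 genes had no overlap between male genotypes. The protease Adam10 was at -0.15 ± 0.07 in males, and Psenen, another gamma-secretase subunit, at -0.29 ± 0.15 in females. Of the glycosylation genes, Rfng and Lfng were at 0.16 ± 0.12 and -0.15 ± 0.19 in females, and Lfng and Pofut1 at 0.07 ± 0.07 and 0.06 ± 0.06 in males.

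Of the coactivators, Maml3 and Snw1 were at -0.23 ± 0.16 and -0.13 ± 0.08 in females, and Maml3 and Maml1 at -0.13 ± 0.13 and -0.06 ± 0.06 in males. The inhibitors Nrarp and Numb were at -0.24 ± 0.16 and -0.07 ± 0.09 in females, and Cir1 at -0.11 ± 0.11 in males. None of these passed the test.

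Between heterozygous females and males 12 of these 38 genes passed, against 22.7% of all genes. Lower in females were Lfng (-0.81 ± 0.17, adjusted p = 0.00250, edgeR) and Mfng (-0.46 ± 0.09, adjusted p = 0.00180), the Fringe enzymes that add sugars to the receptors. Also lower were Poglut1 (-0.23), Psen2 (-0.35), Aph1a (-0.34), Maml1 (-0.20), Maml2 (-0.48) and Cir1 (-0.56). Higher in females were Heyl (1.49 ± 0.31, adjusted p = 0.00259), a further Hes family repressor, and Neurl1b (0.92), Psenen (0.61) and Aph1b (0.53).

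Rows beside Jag1 on chromosome 2 were looked at for a shared difference. Jag1 spans chr2:137081456-137116644 (GRCm38, minus strand) in the files. Of the 5 rows on each side, 3 passed the filter. The nearest, 2210009G21Rik, 9506 bases away, had log2 fold changes of 0.02 ± 0.13 in females and -0.09 ± 0.14 in males. Mkks, 190067 bases away, had 0.08 ± 0.11 and -0.10 ± 0.15, and Btbd3, 1139921 bases away on the other side, 0.00 ± 0.32 and -0.14 ± 0.31. None passed (lowest adjusted p = 0.957 over both sexes). Of the remaining 7, Snap25 had at most 9 reads in a library and the other 6 had 0.

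The genes whose log2 CPM was most like that of Jag1 over the 18 libraries, among 12600 genes, were Epn2 (Pearson r = 0.945), Tjp1 (0.936), Peg3 (0.901), Prox1 (0.895) and Pcdhac1 (0.891). Their likeness holds the genotype difference that chose Jag1. On deviations from the group means, which remove that difference, the closest were Ncam1 (0.803), Agap1 (0.772) and Zcchc14 (0.763). In heterozygotes these deviations rest on 2 to 23 Jag1 reads per library. Ncam1 and Zcchc14 were themselves called by genotype in females (log2 fold change 2.32 ± 0.24 and 2.03 ± 0.30, adjusted p = 0.000631 and 0.00812, edgeR). They were not called in males (0.23 ± 0.45 and -0.53 ± 0.66), and Agap1 was called in neither sex. For Notch2 the closest were Chd7 (0.974), Il2rg (0.948) and Mob3a (0.944), for Dtx1 Snx8 (0.939), Neurl3 (0.897) and Dnase2a (0.897), and for Hes1 Crk (0.844), Hyls1 (0.842) and Pus3 (0.837). None of the 5 genes closest to Jag1 by level is a member of the lists of Notch genes used here. Those lists are a selection, so a tie of these 5 genes to the pathway is not judged.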

How the data were processed

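Per the file headers, the authors deposited raw counts per gene, 1 column per library and a table for each sex, with log2 fold changes and p-values of their own. The submitters' processing notes name bcl2fastq, FastQC, Trim Galore, TopHat, edgeR 3.32.1, mm10 and GRCm38. The counting program, annotation release and strand setting are not given in the sources used here. The 4 columns of group means were not used, and 56 rows without an identifier held at most 0.0846% of any library's counts.

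The deposited counts went unchanged into edgeR 4.0.16 (R 4.3.3): filterByExpr (minimum count 10, total 15), TMM scaling, the quasi-likelihood test and Benjamini-Hochberg adjustment over all genes tested, called at an adjusted p under 0.05. The sexes were fitted apart. Genotype over both sexes had sex as a covariate, and the other contrasts used 4 groups of all 18 libraries. SE is the size of the log2 fold change divided by the square root of F. RPKM used exon lengths of GENCODE M21, the files' build. The scripts were tested on simulated data.

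Alternatives were DESeq2 1.42.0, voom (limma 3.58.1), relative log expression scaling, no filter, a joint fit, nearest animal numbers as a block, and each library left out. The labels state no pairs. Deviations of del/del and heterozygous animals of nearest number correlated at 0.115 to 0.38 in males and -0.0273 to 0.379 in females.

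The members and lists were chosen with earlier results of these data known. Beside the 10 members and Smchd1, the text names genes of the wider Notch list that were called or had the 2 smallest p per role and sex, 5 rows on each side of Jag1, and the genes most like Jag1, Dtx1, Hes1 and Notch2 by Pearson r (log2 CPM, prior count 2). Of the genes this rule names, 1 is not reported here. Markers of single libraries (Col1a1, Col3a1) and the other marker genes printed were picked after their values were seen. Low genes such as Jag1 rest on few reads, and the parts of counting error and of spread between libraries were not separated.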

Additional observations from a re-analysis of the deposited data

Results flagged for a closer look

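Within 40 groups of 4 or 5 libraries (10 genes in 4 groups), 3 held a library far from the others, and chance flags about 1 in 20 groups. Notch2 was at 544 CPM in male heterozygous replicate 4, while the other 3 male heterozygotes were at 420 to 428. Notch3 was at 4.2 CPM in male heterozygous replicate 2, the library with the highest male Col3a1, while the others were at 1.67 to 1.82. Dtx1 was at 124 CPM in female del/del replicate 5, while the others were at 59.2 to 71.8.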

How the results depend on the processing

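The Jag1 difference kept its direction in females, in males and over both sexes under every alternative run. Jag1 was chosen on this difference and the refits use the same libraries, so its values and calls here are a description. Jag1 was the 1 member called in males with DESeq2 and with all 18 libraries in one fit, and leaving out 1 library gave 0 to 1 members there (1 without male heterozygous replicate 2). Between heterozygous sexes, leaving out 1 library gave 3 to 5 members, with 3 without female heterozygous replicate 1 or any single male heterozygote. Genes called numbered 92 (DESeq2) and 58 (one fit) in females, 138 over both sexes, 49 in males and 4 for sex by genotype (all DESeq2), against 34, 78, 16 and 0. Leaving out 1 library gave 5 to 22 genes in males (10 or fewer without del/del replicate 1, 3 or 4 or heterozygous replicate 1 or 4) and 2115 to 3630 between heterozygous sexes (2115 without male heterozygous replicate 3, against 3185). With nearest animal numbers as a replicate block, 23 genes were called in females and 13 in males, and Jag1 was at 3.05 and 2.61. Log2 fold changes near 0 turned sign. With voom over both sexes Notch3 was at -0.0728 and Notch4 at -0.0427. Leaving out single libraries, ranges were -0.255 to 0.0131 (females), -0.0147 to 0.149 (males) and -0.116 to 0.0349 (both) for Jag2, -0.205 to 0.0977 (males) for Dll1, -0.0131 to 0.0918 (females) and -0.0451 to 0.0126 (both) for Notch1, and -0.00216 to 0.37 (females) for Notch2. They were -0.159 to 0.401 (females), -0.548 to 0.229 (males) and -0.191 to 0.183 (both) for Notch3, -0.104 to 0.104 (both) and -0.275 to 0.0136 (between sexes) for Notch4, and -0.0478 to 0.0195 (both) for Rbpj. The cause was not tested. Jag1 rested on few reads in heterozygous libraries, 2 to 23 each.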

Other observations

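Il3ra, a marker on the plasmacytoid dendritic cell list, was the single gene of the marker lists called by genotype over both sexes (log2 fold change 0.55 ± 0.08, adjusted p = 0.00112, edgeR), and it was called in neither sex alone. Over both sexes 0.568% of all genes tested were called, so nothing is read from this single call. Il3ra was named after its values were seen. The summed markers of that list were at 1730-2520 CPM in female heterozygotes, 1840-3200 in female del/del, 1650-1890 in male heterozygotes and 1730-2010 in male del/del libraries, with overlap in both sexes. Notch3, which had a Pearson r of 0.713 with this sum over 18 libraries on deviations from group means, did not differ by genotype beyond its spread.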
